A study of Mus musculus with 9 samples.

Results

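The genes described here are the rRNAs of the mitochondrion and the nuclear-encoded factors that transcribe mitochondrial DNA, modify its rRNA, and stabilise or degrade its RNA. They were found by gene name in the deposited table of counts, and the 10 genes (mt-Rnr1, mt-Rnr2, Polrmt, Tfam, Tfb1m, Tfb2m, Lrpprc, Slirp, Pnpt1 and Supv3l1) are 10 of the 55401 genes listed. All 10 passed the filter on low counts, which left 16762 genes to be tested. The libraries came from primary neonatal mouse ventricular myocytes (NMVMs), heart muscle cells taken from wild-type C57BL/6J pups at the age of 1 day and grown in DMEM with FBS. Control cells stayed in normal oxygen in complete medium. Hypoxia cells were kept for 6 h in a sealed AnaeroPack chamber in DMEM lacking glucose and serum, and hypoxia + rSRGN cells had the same treatment with recombinant serglycin (SRGN), a secreted proteoglycan, in the medium. The dose of rSRGN is not given in the sources used here. Each group has 3 libraries, and a mean ± SD below is over these 3. Against control, the low oxygen and the loss of glucose and serum always go together and cannot be told apart.

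Mitochondrial DNA is transcribed by a single-subunit RNA polymerase, POLRMT, which starts at its promoters with the packaging factor TFAM and the factor TFB2M. The heavy-strand transcript runs first through the 12S and 16S rRNAs and then through most mRNAs, with tRNAs between them that are cut out to release the rest. TFB1M methylates the 12S rRNA, LRPPRC and SLIRP form a complex that keeps the mRNAs stable and polyadenylated, and the nuclease PNPT1 and the helicase SUPV3L1 form the complex that degrades mitochondrial RNA. Heart muscle is rich in mitochondria, and their transcripts make up a large share of its RNA.

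Both rRNA genes lie on the plus strand of the mitochondrial genome (GRCm38), each as a single exon. mt-Rnr1 (12S) occupies chrM:70-1024 and mt-Rnr2 (16S) chrM:1094-2675. The gene mt-Tf lies before the 12S gene, mt-Tv between the rRNA genes and mt-Tl1 directly after the 16S gene. The last 60 bases of the 12S rRNA, chrM:965-1024, are shown because they hold the hairpin with the adenines that TFB1M methylates, and capitals mark its loop. The mt-Tl1 sequence, chrM:2676-2750, is shown because its counts moved the opposite way to those of the adjoining 16S gene, and capitals mark the core of the site bound by the termination factor MTERF1. The stretch chrM:1463-1519 of the 16S rRNA is shown for its longest run of A, in capitals, since the libraries were made from RNA enriched for poly(A).
12S rRNA, 3′ end: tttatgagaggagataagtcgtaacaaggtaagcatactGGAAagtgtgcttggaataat
mt-Tl1: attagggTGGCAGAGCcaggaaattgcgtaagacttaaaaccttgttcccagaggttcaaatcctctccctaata
16S rRNA, longest run of A: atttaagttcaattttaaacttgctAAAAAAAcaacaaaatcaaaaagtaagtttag

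The rRNAs rose in hypoxia while 3 of the factors, Polrmt, Tfam and Lrpprc, fell. A gene was called when edgeR's quasi-likelihood test gave a Benjamini-Hochberg adjusted p below 0.05 with a change of at least 1.5-fold. By this rule 2 of the 10 genes were higher and 3 lower in hypoxia than in control, where 51.6% of all tested genes were called, 26.4% higher and 25.1% lower. The share of the 10 genes called was thus near the background. Of the 10 genes 8 had an adjusted p below 0.05 without regard to fold, beside 70.9% of all genes. In hypoxia + rSRGN against hypoxia none of the 10 was called, where 3.13% of all genes were, 2.27% higher and 0.859% lower. An unadjusted p under 0.05 was found for 2 of them (Polrmt and Lrpprc), beside 29.4% of all genes, and DESeq2 called 0 of the 10. Libraries held 21669017 to 22781557 counts in control, 16583985 to 18148474 in hypoxia and 16640239 to 20826701 in hypoxia + rSRGN, so that the hypoxic libraries were shallower. Cardiomyocyte markers were counted in every library, and all 12 of them were lower in hypoxia, with a summed level of 43040 to 52070 CPM (counts scaled by TMM to a common library size) in control, 3684 to 5566 CPM in hypoxia and 7009 to 7450 CPM in hypoxia + rSRGN. Of 8 fibroblast markers 6 were higher in hypoxia, with a summed level of 8657 to 10240 CPM in control and 17100 to 19890 CPM in hypoxia. The summed level of 6 endothelial markers was 58.46 to 79.33 CPM in control and 37.18 to 43.51 CPM in hypoxia, that of 6 macrophage markers 34.51 to 42.63 CPM and 9.962 to 10.75 CPM, and that of 4 smooth muscle markers 1291 to 1549 CPM and 1869 to 2194 CPM. Of the 4 smooth muscle markers 1 was called higher and 1 lower in hypoxia, so their sum does not stand for each of them. Their median log2 fold change was 0.04, beside 0.05 over all tested genes. Several of the endothelial and macrophage markers, such as Vwf and C1qa, passed the filter through the control group, where they were higher, so no count of calls is given for these lists. None of the markers was without a count in all 9 libraries. In such bulk libraries fewer cells of a type and less RNA per cell cannot be told apart, and the part of the cell makeup in the results below was not tested.

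The 12S rRNA gene mt-Rnr1 had 9129, 8457 and 9907 counts in the control libraries, 116148, 95335 and 104727 in hypoxia, and 101154, 114057 and 95870 in hypoxia + rSRGN. The hypoxic libraries of both kinds all lay far above the controls, and the hypoxic groups overlapped in CPM. The scaled level was 424 ± 49.75 CPM in control, 5938 ± 382 CPM in hypoxia and 5529 ± 482 CPM in hypoxia + rSRGN. The rise in hypoxia was 14.02-fold (log2 fold change 3.81, SE 0.101, edgeR adjusted p = 2.32e-18). Between the hypoxic groups the log2 difference was -0.10, with a 95% interval of -0.29 to 0.08 (edgeR adjusted p = 0.484).

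The 16S rRNA gene mt-Rnr2 had 43330, 36063 and 41839 counts in control, 357232, 307921 and 315297 in hypoxia, and 343398, 388527 and 329372 in hypoxia + rSRGN. Again the controls were separate and the hypoxic groups overlapped. Its level was 1866 ± 209 CPM in control, 18410 ± 711 CPM in hypoxia and 18860 ± 1536 CPM in hypoxia + rSRGN. It rose 9.87-fold in hypoxia (log2 fold change 3.303, SE 0.0986, edgeR adjusted p = 1.4e-17). The difference between the hypoxic groups was 0.03 on the log2 scale, with a 95% interval of -0.15 to 0.22. By mean level per kilobase of exon among the 16762 tested genes, mt-Rnr2 went from rank 20 in control to rank 2 in hypoxia, and mt-Rnr1 from rank 55 to rank 4.

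**Figure D1:**
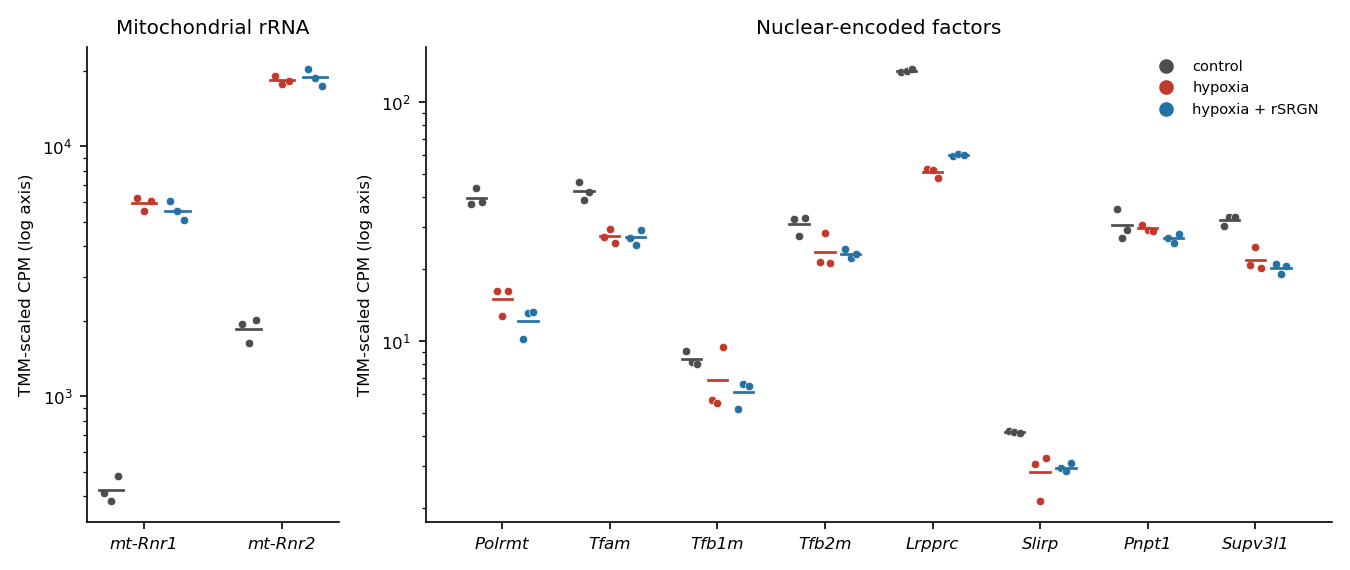
Level of each gene in each library, in TMM-scaled CPM on log axes, with 1 point per library and a line at the group mean for control, hypoxia and hypoxia + rSRGN (3 libraries each). The rRNAs on the left rise from 424 and 1866 CPM in control to 5938 and 18410 CPM in hypoxia, whereas Polrmt, Tfam and Lrpprc on the right lie lower in both hypoxic groups than in control.

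The 2 rRNAs did not rise by the same factor. The ratio of 16S to 12S, in counts per kilobase within a library, was 2.87, 2.57 and 2.55 in control, 1.86, 1.95 and 1.82 in hypoxia, and 2.05, 2.06 and 2.07 in hypoxia + rSRGN. The 3 groups were separate, with the highest ratio in control and the lowest in hypoxia. The log2 difference in the ratio was -0.51 (SE 0.0618) for hypoxia against control and 0.14 (SE 0.0305) for hypoxia + rSRGN against hypoxia. An exact two-sided permutation test gave p = 0.1 for each, the smallest p that 3 against 3 allows, and 0.15 after Benjamini-Hochberg adjustment over the 15 ratio tests made, so neither could pass the threshold. These ratios do not depend on how the libraries were scaled.

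Against the mRNAs of the same genome the shift was far larger. The ratio of summed rRNA to summed mRNA counts per kilobase was 0.0226, 0.0219 and 0.0257 in control, 0.816, 0.622 and 0.862 in hypoxia, and 0.845, 0.813 and 0.832 in hypoxia + rSRGN. The control ratios were the lowest by a wide margin, and those of the hypoxic groups overlapped. The ratio was 32.5-fold higher in hypoxia than in control (exact permutation p = 0.1, adjusted 0.15), and the exact p between the hypoxic groups was 0.7. Of the 13 mitochondrial mRNAs 11 were called lower in hypoxia (25.1% of all genes were), and the median log2 fold change was -1.38, beside 0.05 over all tested genes. The 2 not called, mt-Nd4 and mt-Atp8, are named after their values were seen. mt-Nd4, a subunit of complex I, had a log2 fold change of -0.43. mt-Atp8, a subunit of the ATP synthase, had 100, 81 and 206 counts in control, 19, 375 and 19 in hypoxia, and 21, 25 and 19 in hypoxia + rSRGN. Its count in hypoxia replicate 2 stood apart from those of all other hypoxic libraries, so no fold change over the 3 libraries is given. Without that library it was called lower in hypoxia, with a log2 fold change of -2.499 (edgeR adjusted p = 4.32e-06). The same library stood apart for mt-Co2, a subunit of cytochrome c oxidase, which had 4307, 5093 and 2886 counts in control, 1539, 2973 and 1153 in hypoxia, and 1047, 1259 and 1006 in hypoxia + rSRGN. Its CPM in control and hypoxia overlapped, and its log2 fold change in hypoxia was -0.81 (edgeR adjusted p = 0.00202), -1.33 without hypoxia replicate 2 and, short of the call, -0.56 without hypoxia replicate 3. In hypoxia + rSRGN against hypoxia the calls were mt-Atp8 and mt-Co2 (-0.87), both lower, so 2 of the 13 mRNAs where 0.859% of all genes were. Neither was called without hypoxia replicate 2, and mt-Atp6 (-0.68) was then the 1 mRNA called. mt-Atp8 also lost its call without any 1 of the hypoxia + rSRGN libraries (edgeR adjusted p = 0.0589 to 0.0707), while mt-Co2 kept it. Without hypoxia replicate 3 there were 4 calls, all lower. The genes mt-Co2, mt-Atp8, mt-Atp6, mt-Co3, mt-Nd3 and mt-Nd4l lie between mt-Co1 and mt-Nd4 and had far fewer counts than either. In control replicate 1 mt-Co1 had 928277 counts, mt-Co3 2082, mt-Nd3 385, mt-Nd4l 1338 and mt-Nd4 113372. Whether sequences of these mRNAs also occur elsewhere in the genome was not tested. The counts of this stretch, and the calls that rest on them, are thus uncertain. The rRNAs took 0.195% to 0.239% of all counts in control, 2.31% to 2.61% in hypoxia and 2.27% to 2.67% in hypoxia + rSRGN. The mRNAs took 8.07% to 9.24% in control, 2.74% to 3.45% in hypoxia and 2.54% to 2.95% in hypoxia + rSRGN. Within the counts from the mitochondrial genome, the rRNA share went from 2.36%-2.71% in control to 40.1%-47.9% in hypoxia.

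**Figure D2:**
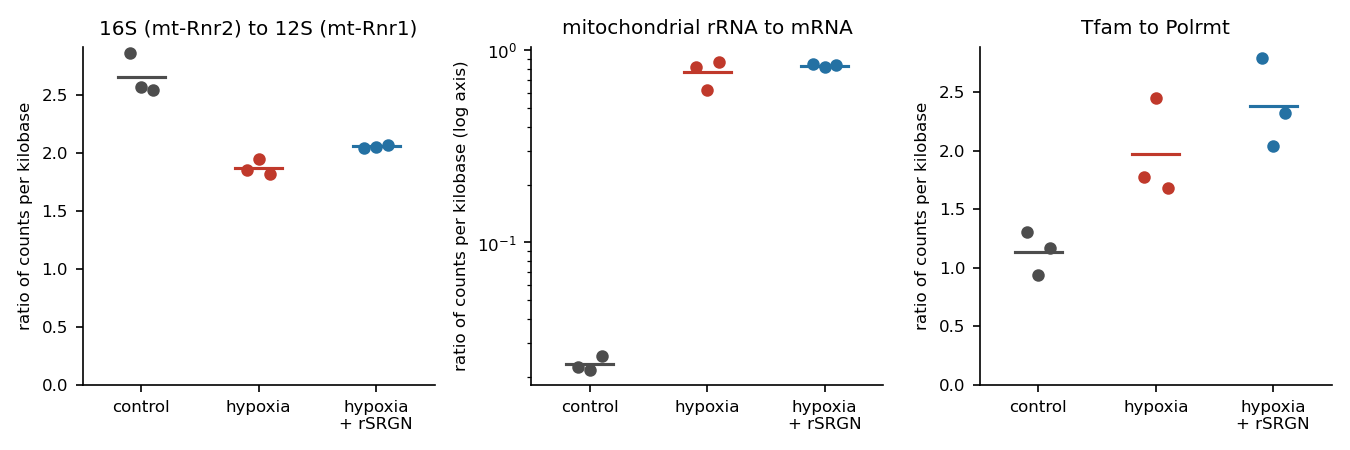
Ratios of counts per kilobase within each library, with 1 point per library and a line at the mean of the 3 libraries of a group (linear axes from 0 for 16S to 12S and for Tfam to Polrmt, log axis for rRNA to mRNA). The 16S to 12S ratio is highest in control (2.55 to 2.87), and the rRNA to mRNA ratio lies at 0.0219 to 0.0257 in control and at 0.622 to 0.862 in hypoxia.

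Of the tRNA genes beside the rRNA genes, mt-Tl1 alone had enough counts to be tested. mt-Tf, for the tRNA of phenylalanine, had 0 counts in all 9 libraries, and mt-Tv, for that of valine, had 1 count in all. mt-Tl1, for a leucine tRNA, had 370, 244 and 314 counts in control, 56, 55 and 55 in hypoxia, and 63, 69 and 54 in hypoxia + rSRGN. The controls were thus above both hypoxic groups, and the counts of mt-Tl1 fell by 2.19 on the log2 scale in hypoxia (SE 0.183, edgeR adjusted p = 4.06e-10), from 14.3 ± 2.91 CPM to 3.12 ± 0.1003 CPM. This gene directly adjoins mt-Rnr2 and mt-Nd1. Fragments that reach a neighbour overlap several genes and were left unassigned, so only those within its 75 bases were counted. These values do not measure the amount of the tRNA, and the same limit holds for other tRNA genes that adjoin their neighbours. Of the 22 mitochondrial tRNA genes 13 passed the filter on low counts. Several of them passed only through the group where they were high. That group was control for mt-Tw, with 146, 130 and 99 counts against 3, 2 and 1 in hypoxia, and for mt-Th, with 41, 57 and 88 against 3, 0 and 0. It was hypoxia for mt-Tq, with 9, 7 and 5 counts in control and 22, 38 and 18 in hypoxia, and for mt-Tm, with 3, 13 and 3 against 9, 14 and 25. No count of calls or median over the 13 is therefore given.

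**Figure D3:**
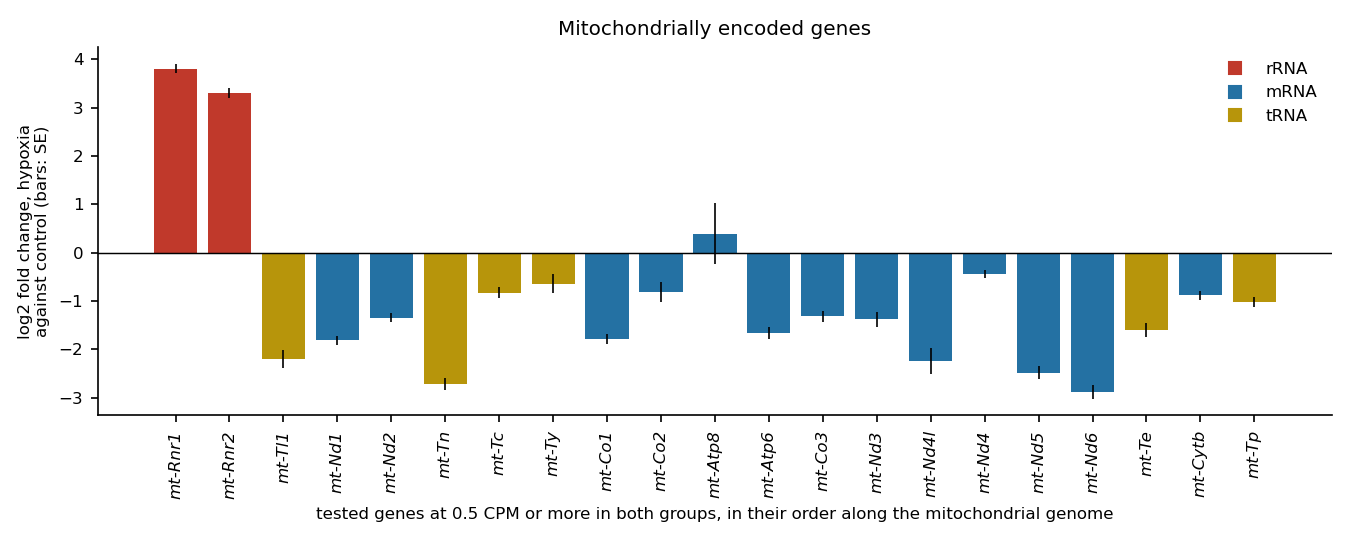
Log2 fold change of hypoxia against control (bars, with SE) for the tested genes of the mitochondrial genome with a mean of at least 0.5 CPM in both groups (which leaves out mt-Tq, mt-Tm, mt-Tw and mt-Th among others), placed in their order along it and coloured as rRNA, mRNA or tRNA. The rRNAs at the left stand at 3.81 and 3.303, the mRNAs other than mt-Atp8 lie below 0, and the long error bar of mt-Atp8 goes with its count of 375 in hypoxia replicate 2.

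RNA enriched for poly(A) went into these libraries, and 12 other RNAs that carry no poly(A) tail were looked up. Of these 5 passed the filter on low counts. Among them Gm25966, Vaultrc5 and Gm26280 had means of at most 0.51 CPM in control and passed through the hypoxic groups, where they were higher, so no count of calls or median over the 5 is given. The other two were counted in every control library and are described after their values were seen. Rn7sk, a small nuclear RNA that holds back transcription elongation, was at 3.25 ± 1.58 CPM in control, 163 ± 12.4 CPM in hypoxia and 132 ± 7.87 CPM in hypoxia + rSRGN (log2 fold change 5.65 for hypoxia against control, edgeR adjusted p = 2.62e-17). CT010467.1, annotated as an rRNA, was at 3128 ± 1237 CPM in control, 8977 ± 1623 CPM in hypoxia and 6807 ± 607 CPM in hypoxia + rSRGN (log2 fold change 1.52, edgeR adjusted p = 3.59e-07). Both were higher in each hypoxia library than in each control library. By base composition the 12S rRNA was 37.8% A with a longest run of 5, and the 16S rRNA 38.2% A with a longest run of 7. The 13 mRNAs were 22.2% to 40.7% A, with a median of 33.8%, and their longest runs were 3 to 8 bases, with a median of 5. Both rRNAs thus lay above the median of the mRNAs in A, and mt-Atp8 was the one mRNA richer in it. The part of the poly(A) enrichment in the rise of the rRNAs was not tested.

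Polrmt, the RNA polymerase of the mitochondrion (chr10:79736123-79746581, minus strand, GRCm38), had 37.3, 43.4 and 37.9 CPM in control, 16.2, 12.7 and 16.2 in hypoxia, and 10.1, 13.01 and 13.2 in hypoxia + rSRGN. Every control library was above every hypoxic one. It fell by 1.398 on the log2 scale in hypoxia (SE 0.119, edgeR adjusted p = 6.15e-10), which left 14.99 ± 2.03 CPM of 39.5 ± 3.35 CPM. In hypoxia + rSRGN it was lower than in hypoxia by 0.30 on the log2 scale (95% interval -0.57 to -0.04, edgeR adjusted p = 0.111), and the groups overlapped.

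Tfam (chr10:71225464-71238280, minus strand), which bends and packages mitochondrial DNA, had 46.2, 38.7 and 41.9 CPM in control, 27.2, 29.4 and 25.7 in hypoxia, and 26.8, 25.2 and 29.1 in hypoxia + rSRGN. The controls lay above both hypoxic groups, which overlapped. Its log2 fold change in hypoxia was -0.62 (SE 0.0978, edgeR adjusted p = 6.8e-06), just past the limit of 1.5-fold, and it passed that limit no longer without control replicate 1 (-0.57), without hypoxia replicate 3 (-0.58) or with libraries scaled by total count alone (-0.56). The ratio of Tfam to Polrmt per kilobase was 1.31, 0.943 and 1.17 in control, 1.78, 2.45 and 1.68 in hypoxia, and 2.79, 2.05 and 2.32 in hypoxia + rSRGN. Control was separate from both hypoxic groups, with a log2 difference of 0.78 for hypoxia against control (exact permutation p = 0.1, adjusted 0.15).

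Tfb2m (chr1:179528055-179546267, minus strand), the factor that opens the promoter for POLRMT, had 32.3, 27.4 and 32.7 CPM in control, 21.4, 28.3 and 21.1 in hypoxia, and 24.2, 22.3 and 23.0 in hypoxia + rSRGN. Hypoxia replicate 2 lay within the range of the controls. The log2 fold change in hypoxia was -0.38 (SE 0.114, edgeR adjusted p = 0.00496), short of 1.5-fold. Of all windows of 50 bases in its transcripts, 31.9% also occur in the pseudogene Gm1818, which had 73 to 86 counts in control and 28 to 49 in hypoxia, so its counts are uncertain. Tfb1m (chr17:3519256-3557781, minus strand), the 12S methyltransferase, had 9.03, 8.17 and 8.02 CPM in control, 5.64, 5.49 and 9.38 in hypoxia, and 5.18, 6.60 and 6.44 in hypoxia + rSRGN. Hypoxia replicate 3 was above all controls and the other two were below them. The log2 fold change was -0.30 (SE 0.186, edgeR adjusted p = 0.154), and without that library it was -0.60 with an adjusted p of 0.00588, past the call.

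Lrpprc (chr17:84705247-84790789, minus strand) had 133, 134 and 138 CPM in control, 52.1, 51.9 and 47.8 in hypoxia, and 59.1, 60.5 and 59.6 in hypoxia + rSRGN. All 3 groups were separate, with hypoxia + rSRGN between the other two. It fell by 1.41 on the log2 scale in hypoxia (SE 0.0711, edgeR adjusted p = 6.8e-14), from 135 ± 2.52 CPM to 50.6 ± 2.40 CPM. Of the 10 genes it was the only one with an adjusted p below 0.05 for hypoxia + rSRGN against hypoxia, at 59.75 ± 0.712 CPM, a level 1.18-fold higher (log2 difference 0.24, 95% interval 0.09 to 0.39, edgeR adjusted p = 0.0259). The change was below 1.5-fold, so it was not called. Without the fold limit 16.6% of all genes passed, and the adjusted p was 0.12 without hypoxia replicate 3 and 0.0539 to 0.102 without a library of hypoxia + rSRGN. All 12 cardiomyocyte markers had log2 differences above 0 in this comparison, with a median of 0.77, and 10 of them were called higher by the rule with the fold limit, where 2.27% of all genes were. Their part in this difference was not tested.

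Slirp (chr12:87443896-87452206, plus strand), the partner of LRPPRC, was counted at 4.18, 4.15 and 4.11 CPM in control, 3.06, 2.14 and 3.24 in hypoxia, and 2.92, 2.84 and 3.06 in hypoxia + rSRGN. The controls were separate, with a log2 fold change in hypoxia of -0.56 (SE 0.224, edgeR adjusted p = 0.0307), short of 1.5-fold. Of its 3104 exon bases 3036 (97.8%) are also exon bases of Snw1 or Alkbh1 on the other strand, and only 68 are its own. Counting without strand leaves fragments that overlap several genes unassigned, so these values do not measure the amount of Slirp RNA. The same limit holds for the ratio of Lrpprc to Slirp per kilobase, which was 11.6 to 12.2 in control and 5.38 to 8.87 in hypoxia (exact permutation p = 0.1, adjusted 0.15).

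Of the degradation complex, Pnpt1 (chr11:29130744-29161828, plus strand), the exoribonuclease, had 35.6, 26.9 and 29.0 CPM in control, 30.6, 29.0 and 28.9 in hypoxia, and 27.0, 25.7 and 27.9 in hypoxia + rSRGN. The control range held all 3 hypoxia libraries. The log2 difference in hypoxia was -0.05, with a 95% interval of -0.27 to 0.17 (edgeR adjusted p = 0.681), whose bounds lie within 1.5-fold. All hypoxia + rSRGN libraries were below all hypoxia libraries, by 0.13 on the log2 scale (edgeR adjusted p = 0.431). Supv3l1 (chr10:62429209-62449738, minus strand), the helicase, had 30.2, 32.9 and 32.9 CPM in control, 20.7, 24.6 and 20.1 in hypoxia, and 21.0, 18.9 and 20.4 in hypoxia + rSRGN. The controls were separate from both hypoxic groups. Its log2 fold change was -0.55 in hypoxia (SE 0.101, edgeR adjusted p = 4.77e-05), short of 1.5-fold, and -0.67 in hypoxia + rSRGN against control (SE 0.102, edgeR adjusted p = 4.68e-06), which was called. It was also called for hypoxia against control without control replicate 1 (-0.61), without hypoxia replicate 2 (-0.65) and with no filter on low counts (-0.61). The ratio of Pnpt1 to Supv3l1 per kilobase was 0.690 to 0.998 in control and 0.995 to 1.25 in hypoxia (exact permutation p = 0.2, adjusted 0.273).

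**Figure D4:**
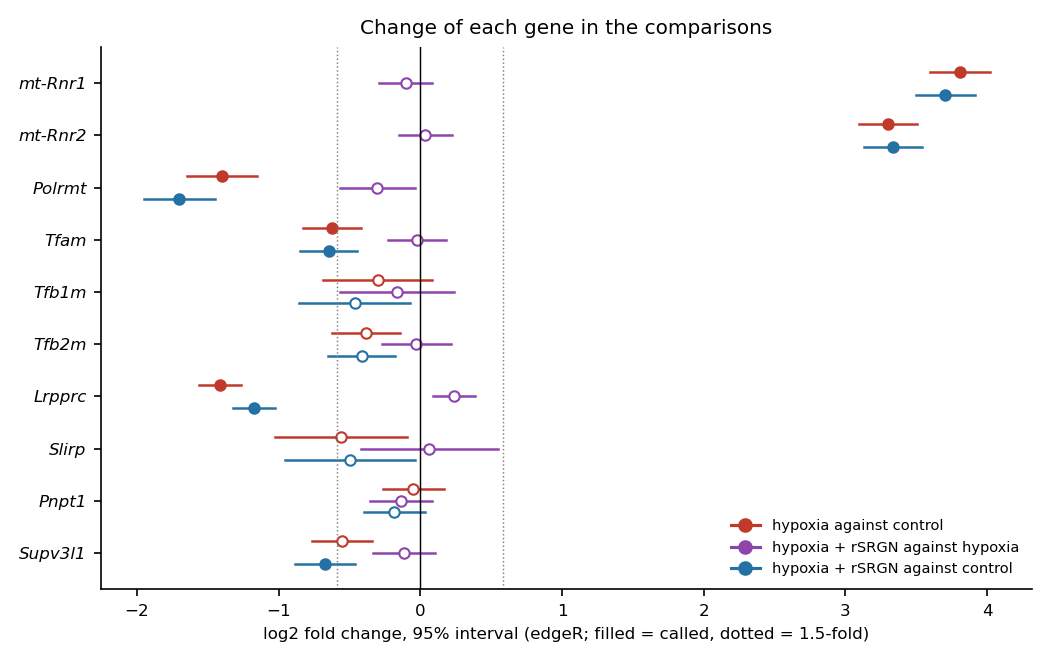
Log2 fold change of each gene in the 3 comparisons with its 95% interval (edgeR), with filled points for called genes and dotted lines at 1.5-fold. The rRNAs stand at 3.81 and 3.303 in hypoxia against control, the points of the nuclear-encoded genes for that comparison lie between -1.41 and -0.05, and no point is filled for hypoxia + rSRGN against hypoxia.

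Across the 8 nuclear-encoded genes, all log2 fold changes in hypoxia were below 0, except that Pnpt1 stood at 0.017 with libraries scaled by total count alone and at 0.057 without control replicate 1. Their median was -0.56, beside 0.05 over all tested genes. Slirp (-0.56) is 1 of the 2 middle values of this median, though its counts do not measure its RNA. The counts of Tfb2m, also among the 8, are uncertain. The groups did not overlap for 7 of the 10 genes in hypoxia against control (73.0% of all genes) and for 2 of the 10, Lrpprc and Pnpt1, in hypoxia + rSRGN against hypoxia (32.0% of all genes). In hypoxia + rSRGN against control, which shares its libraries with the other comparisons, 6 of the 10 were called where 48.8% of all genes were, 24.1% higher and 24.7% lower. mt-Rnr1 (3.71) and mt-Rnr2 (3.34) were higher, and Polrmt (-1.70), Lrpprc (-1.17), Supv3l1 (-0.67) and Tfam (-0.65) lower, on the log2 scale.

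By level per kilobase, the order in control was mt-Rnr2 (1179 CPM per kilobase), mt-Rnr1 (444), Lrpprc (15.8), Tfb2m (10.98), Supv3l1 (10.8), Tfam (9.53), Pnpt1 (8.68), Polrmt (8.44), Tfb1m (2.33) and Slirp (1.34). The ranges of neighbours overlapped from Tfb2m to Polrmt, and the other neighbours were separate. Tfb2m (9.76 to 11.65) and Supv3l1 (10.16 to 11.09) lay above Polrmt (7.96 to 9.26) in every library, and Supv3l1 also above Pnpt1 (up to 10.13). The place of Slirp is not a measure of its RNA, since its counts are divided by 3104 exon bases of which 68 are its own. In hypoxia Lrpprc had rank 7 with 5.95 CPM per kilobase, below Tfb2m (8.41), Pnpt1 (8.38), Supv3l1 (7.34) and Tfam (6.19), though its range overlapped that of Tfam. In hypoxia + rSRGN it had rank 5 with 7.03 CPM per kilobase, overlapping Supv3l1 (6.78). Polrmt had rank 8 in each group, with 3.20 CPM per kilobase in hypoxia and 2.59 in hypoxia + rSRGN.

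The promoters of 4 nuclear-encoded genes are shown as RefSeq gives them (GRCm38.p6), each from 250 bases before to 50 bases after the start and read along the gene's strand. Polrmt, Tfam and Lrpprc are shown because they fell, and Pnpt1 because it was not called. NRF1 and the ETS factor GABP are known regulators of genes of mitochondrial transcription. Capitals mark the NRF1 core GCGCATGC (GCATGCGC on the other strand) and the ETS core CCGGAA, which reads TTCCGG on the other strand, searched on both strands. The NRF1 core and the ETS core share no letters in these promoters.
Polrmt, chr10:79746532-79746831, minus strand: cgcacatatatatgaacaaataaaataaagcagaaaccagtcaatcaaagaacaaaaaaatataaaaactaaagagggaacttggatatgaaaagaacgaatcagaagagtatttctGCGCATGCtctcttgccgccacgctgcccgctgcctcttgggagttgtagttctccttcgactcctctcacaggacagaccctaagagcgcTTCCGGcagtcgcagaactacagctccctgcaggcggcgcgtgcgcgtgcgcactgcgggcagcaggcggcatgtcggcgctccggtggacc
Tfam, chr10:71237995-71238294, minus strand: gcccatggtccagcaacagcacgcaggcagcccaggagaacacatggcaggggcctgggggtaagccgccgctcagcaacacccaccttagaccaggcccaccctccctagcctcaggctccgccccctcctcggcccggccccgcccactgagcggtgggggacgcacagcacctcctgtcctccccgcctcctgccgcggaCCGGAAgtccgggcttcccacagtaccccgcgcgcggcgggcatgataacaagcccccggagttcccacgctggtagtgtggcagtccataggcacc
Lrpprc, chr17:84790737-84791036, minus strand: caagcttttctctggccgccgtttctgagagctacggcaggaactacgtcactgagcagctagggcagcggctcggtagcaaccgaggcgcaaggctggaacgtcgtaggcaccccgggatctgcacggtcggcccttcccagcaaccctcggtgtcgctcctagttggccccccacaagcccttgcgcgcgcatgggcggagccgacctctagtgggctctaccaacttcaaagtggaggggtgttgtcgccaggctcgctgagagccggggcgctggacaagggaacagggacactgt
Pnpt1, chr11:29130494-29130793, plus strand: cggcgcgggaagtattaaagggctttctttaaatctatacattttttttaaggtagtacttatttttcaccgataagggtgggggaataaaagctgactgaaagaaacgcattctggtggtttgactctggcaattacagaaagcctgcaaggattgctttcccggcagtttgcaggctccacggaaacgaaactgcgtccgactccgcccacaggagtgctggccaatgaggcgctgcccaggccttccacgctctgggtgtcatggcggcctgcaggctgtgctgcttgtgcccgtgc
All 8 nuclear-encoded genes had a promoter in the table. The NRF1 core was in 2 of the 8 windows (Polrmt and Tfb2m), beside 2.71% of all 32851 promoters, and the ETS core in 4 (Polrmt, Tfam, Tfb1m and Slirp), beside 14.9% of all. Of the genes that fell, Lrpprc had neither core in its window, and neither had Pnpt1. A match describes the letters alone and is not a measured site.

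Other nuclear genes of mitochondrial RNA and DNA upkeep were followed in 4 lists. Of their 56 tested genes 3 were called higher, 20 lower and 33 not called in hypoxia, and the median log2 fold change was -0.28. The share called higher can be read against 26.4% of all tested genes and the share called lower against 25.1%, with a median of 0.05. Of 7 other transcription factors and regulators 3 were lower, and the median log2 fold change of the 7 was -0.09. Among those lower were Tefm, the elongation factor of POLRMT, from 17.5 ± 0.782 CPM in control to 7.17 ± 0.812 CPM in hypoxia (log2 fold change -1.28, edgeR adjusted p = 1.23e-08), and Mterf2 (-0.92). Of 17 genes of RNA processing 1 was higher and 8 lower. The one that rose was Rexo2, which breaks down very short RNAs, from 61.0 ± 4.97 CPM to 148 ± 19.45 CPM (log2 fold change 1.28, edgeR adjusted p = 2.16e-11). The steepest falls in that list were those of Fastkd1, an RNA-binding protein of the mitochondrion, from 30.9 ± 1.92 CPM to 6.81 ± 1.86 CPM (-2.18), and of Prorp, the nuclease that cuts the 5′ end of mitochondrial tRNAs (-1.22). Of 20 genes that modify the rRNAs or assemble the mitochondrial ribosome 7 were lower. These included Ddx28 (-1.59), a helicase of large-subunit assembly, and Mrm1 (-1.47), which methylates the 16S rRNA. In hypoxia + rSRGN against hypoxia 0 of the 56 were called by edgeR or by DESeq2, where edgeR called 3.13% of all genes, so that the count is near the background. An unadjusted p under 0.05 was found for 13 of the 56, beside 29.4% of all genes. Without the fold limit 4 passed, beside 16.6% of all genes, and these were Rexo2 (-0.38), Ssbp1 (-0.50), Dguok (-0.41) and Rrm2b (0.43), named after their values were seen. The median log2 difference of the 56 was -0.11 beside -0.03 over all genes.

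**Figure D5:**
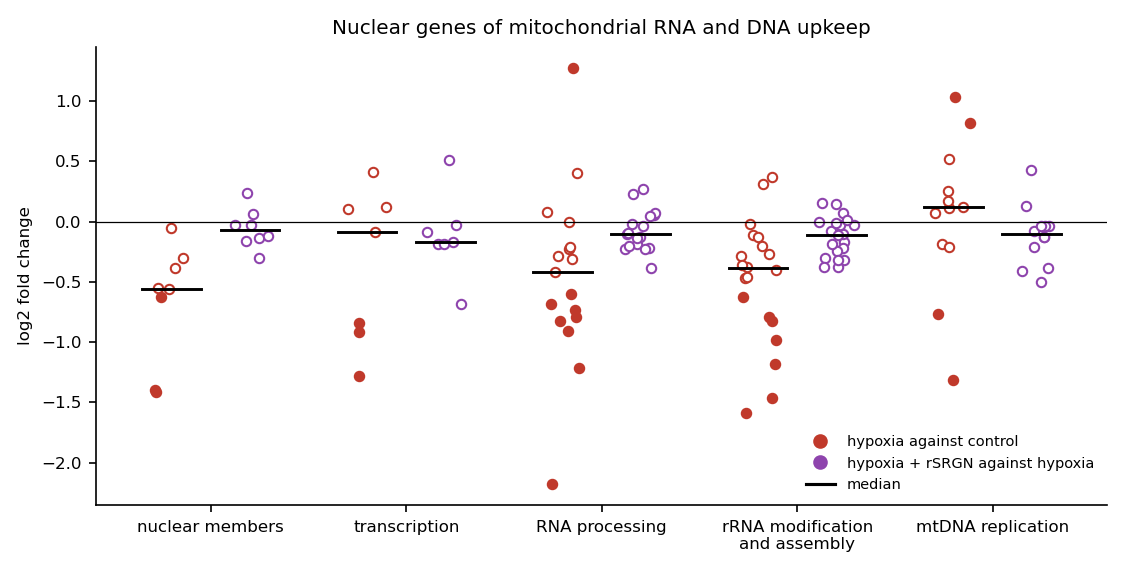
Log2 fold change of the 8 nuclear-encoded genes and of the genes of 4 lists on mitochondrial RNA and DNA upkeep, in hypoxia relative to control (red) and in hypoxia + rSRGN relative to hypoxia (purple), with filled points for called genes and lines at the medians. For hypoxia against control the median is -0.56 for the 8 genes, -0.09 for transcription, -0.41 for RNA processing, -0.39 for rRNA modification and assembly and 0.12 for mitochondrial DNA, and no point is filled for hypoxia + rSRGN against hypoxia.

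Likeness of pattern was measured as the root mean square difference of 2 genes in log2(CPM + 0.5) over the 9 libraries, after each gene was centred on its own mean. The pseudocount of 0.5 compresses the changes of low genes. Among the 16762 tested genes, those nearest to mt-Rnr1 were Wdr95 (0.171) and Dnajb1 (0.191), a heat shock cochaperone, and those nearest to mt-Rnr2 were the pseudogene Phgdh-ps1 (0.166) and Prdm14 (0.167). Dnajb1, at a mean of 555 CPM, had a log2 fold change of 3.94 in hypoxia beside 3.81 for mt-Rnr1. The other three were low, with means of 7.16, 2.92 and 3.34 CPM and with 4 to 7, 0 to 2 and 0 to 1 counts in the control libraries, so that their small distances do not mean a like fold change. Among 66 genes (these 10 and the 4 lists), the nearest to Polrmt was Mrm1 (0.127), to Tfam Fastk (0.102), to Lrpprc the rRNA methyltransferase Nsun4 (0.131), to Pnpt1 Exog (0.0807) and to Supv3l1 again Fastk (0.0979). Tfb1m was nearest to Ngrn (0.179), Tfb2m to Mtg1 (0.127) and Slirp to Eral1 (0.0753), with the limits on their counts given above.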

How the data were processed

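RNA-seq was made from 9 cultures, 3 per group. The deposited table holds raw counts of fragments per gene as whole numbers. Its header names featureCounts 2.0.1, run on read pairs over exons of GENCODE release 25 without a strand option. The submitters' processing notes add HISAT2 and mm10. All 9 columns of counts were used and 0 left unused. Groups and replicate numbers came from the labels, which do not say whether replicates were separate cell isolations, so p-values measure the spread between these libraries.

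Differential expression was tested with edgeR 4.0.16 under R 4.3.3 (filterByExpr, TMM, quasi-likelihood test, a mean per group over all 9 libraries, Benjamini-Hochberg adjustment over 16762 genes). The SE was derived from the coefficient and its F statistic. Counts drawn at random with 200 genes changed 2-fold served as a test on simulated data of 16762 genes, in which 181 (90.5%) were called for hypoxia against control and 176 (88%) for hypoxia + rSRGN against hypoxia, with 1 and 3 unchanged genes called. The changed genes were drawn from those with a mean of at least 1 CPM, and equally many rose and fell. In the data 51.6% of genes were called for hypoxia against control, so the simulation does not show how the test does at such a share. Ratios were compared within libraries by an exact permutation test. Replicates differed by more than sampling noise (chi-square per degree of freedom 3.63 to 13.1), so each was counted. Exon overlaps were taken from the exon positions in the deposited table (GENCODE release 25), the rRNA and tRNA sequence from GENCODE release 21 (GRCm38), and promoters from RefSeq.

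The genes and lists were chosen with earlier results of these data known. Named beside the 10 genes were the tRNA genes next to the rRNA genes and, per list and comparison, up to 2 genes with the largest rise and 2 with the largest fall among called genes without overlap and with a mean of at least 1 CPM. The alternatives were RLE scaling, total count alone, scaling without mitochondrial genes, other filters, DESeq2 1.42.0, no fold limit, a block for the replicate number, a fit restricted to the 2 groups of a comparison, each library left out, and a geometric mean for the ratio of rRNA to mRNA. Figures were drawn with matplotlib 3.10.9.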

Additional observations from a re-analysis of the deposited data

How the results depend on the processing

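The 5 calls among the 10 genes for hypoxia against control became 8 with no fold limit, and those for hypoxia + rSRGN against hypoxia went from 0 to 1 (Lrpprc). Over all genes the latter comparison had 525 calls, 2790 with no fold limit and 321 to 699 with a library left out, the lowest without hypoxia replicate 3. The share of higher calls in it was 72.6%, but 66.9% with total count alone, 80.7% with RLE scaling and 81.5% with DESeq2. Some values close to 0 changed sign. For hypoxia + rSRGN against hypoxia, Tfam gave 0.0053 with RLE scaling and with DESeq2 and Tfb2m 0.00096 with RLE scaling and 0.0010 with DESeq2, and for hypoxia against control Pnpt1 gave 0.017 with total count alone. With each library left out, the log2 values ranged from -0.15 to 0.057 for Pnpt1 in hypoxia against control, and in hypoxia + rSRGN against hypoxia from -0.069 to 0.030 for Tfam, -0.10 to 0.12 for Tfb2m, -0.098 to 0.17 for Slirp, -0.29 to 0.13 for Tfb1m and -0.026 to 0.099 for mt-Rnr2. In the same comparison the ratios ranged from -0.015 to 0.22 for rRNA to mRNA, -0.00032 to 0.36 for Lrpprc to Slirp and -0.12 to 0.037 for Pnpt1 to Supv3l1. The cause was not tested. Slirp passed 1.5-fold in hypoxia against control with no filter (-0.61), without hypoxia replicate 1 (-0.62) and without hypoxia replicate 3 (-0.67).

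The replicate numbers are shared between groups, yet deviations of same-numbered libraries correlated at -0.037 to 0.022 over 9 pairs, so the numbers were not taken to pair the samples. A block for the replicate number left 8550 calls for hypoxia against control (5 of the 10 genes), 495 between the hypoxic groups (0 of the 10) and 8096 between hypoxia + rSRGN and control (6 of the 10). Depth limits the low genes most, as Slirp had 37 to 93 counts and Tfb1m 87 to 201.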

Other observations

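Of the 12 tested genes that copy or maintain mitochondrial DNA, 2 were called higher and 2 lower in hypoxia, where 26.4% and 25.1% of all genes were, and the median change from control was 0.12 on the log2 scale. Polg2, the accessory subunit of the mitochondrial DNA polymerase, rose from 3.55 ± 0.290 CPM to 7.28 ± 0.730 CPM (log2 fold change 1.04, edgeR adjusted p = 4.23e-05). Rnaseh1, which removes RNA from RNA-DNA hybrids, rose from 12.9 ± 1.81 CPM to 22.7 ± 1.94 CPM (0.82, edgeR adjusted p = 1.52e-06). Rrm2b, a subunit of ribonucleotide reductase, fell from 31.0 ± 1.08 CPM to 12.5 ± 1.51 CPM (-1.31, edgeR adjusted p = 7.93e-10), and the DNA ligase Lig3 from 37.0 ± 2.82 CPM to 21.8 ± 1.86 CPM (-0.76, edgeR adjusted p = 7.63e-07).

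The genes that share exon bases with Slirp moved differently from each other. Alkbh1, a demethylase on the other strand, had 384 to 396 counts in control and 649 to 795 in hypoxia (log2 fold change 1.17, edgeR adjusted p = 3.04e-10). Snw1, a splicing and transcription cofactor that covers 2914 of the Slirp exon bases, had 997 to 1136 counts in control and 712 to 863 in hypoxia (-0.16, edgeR adjusted p = 0.127).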
